A study of Mus musculus with 9 samples.

Results

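The constitutive proteasome was followed through RNA-seq libraries of mouse fetal liver erythroid cells. Members were all gene symbols that begin with Psm, a letter from a to g and a digit, without the inducible subunits Psmb8, Psmb9 and Psmb10 and without pseudogenes. This gave 46 of the 19840 gene names in the files. By role they were 7 alpha and 8 beta subunits of the core particle, 9 base and 8 lid subunits of the regulatory particle, 5 activators and inhibitors, and 7 assembly chaperones. The other 2, Psmc3ip (a meiotic recombination factor) and Psme3ip1 (a binding partner of Psme3), matched by name and are not subunits.

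The proteasome is the large protease that degrades ubiquitin-tagged proteins in the cytosol and nucleus. Its barrel-shaped core is made of rings of alpha subunits, which gate the entrance, and rings of beta subunits, some of which hold the catalytic sites. The regulatory particle caps the barrel: its base unfolds substrates with ATPases, and its lid removes the ubiquitin chains. Maturing red cells dispose of much of their protein content through ubiquitin and the proteasome before and after they lose the nucleus.

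The series compared C57BL/6 fetal liver cells of embryonic days 13.5 to 14.5, with 1 library per condition and 9 in all. The 3 fresh libraries were BFU-E (early erythroid progenitors, the 10% of Kit-positive cells with the least CD71), CFU-E (later progenitors, the 20% with the most CD71) and erythroblasts that carried Ter119 without Kit. Both progenitor gates also left out cells bearing Ter119, CD34, CD41, CD16/32, B220, CD3, Mac-1 or Gr-1. The 6 cultured libraries were BFU-E sorted on CD71 alone (CD71 sort) or on CD24a as well, taking cells low in each (CD71/CD24a sort). All were first held 4 h without serum, in medium that contained erythropoietin at 2 U/mL, IGF-1 at 40 ng/mL and SCF, the ligand of Kit, at 100 ng/mL, and were then divided between arms for another 4 h. CD71 sort cells received 100 nM dexamethasone (Dex, a synthetic glucocorticoid) or water. The double-sorted cells received Dex with 333 µM DMOG (an inhibitor of the oxygen-sensing prolyl hydroxylases), Dex, DMOG, or water. No label gives separate animals or cultures for a condition, so the spread between libraries may be technical.

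The values are RPKM (reads per kilobase of transcript per M reads) computed by the authors, divided here by 1 factor per library. A level below is this normalised RPKM, and a difference is on the scale of log2(normalised RPKM + 1). Depth estimated from the files was 11.9 to 52.8 M reads per library. Erythroid markers were all present in the fresh libraries, with 8 of 8 at 1 or more. Neutrophil markers summed to 99.3 in BFU-E (3 of 9 at 1 or more), 4.79 in CFU-E (2 of 9) and 204 in Ter119-positive cells (9 of 9). Macrophage markers summed to 6.91 (2 of 7), 1.53 (0 of 7) and 40.3 (6 of 7) in those libraries. Megakaryocyte markers summed to 60.5 (4 of 5), 11.6 (3 of 5) and 86.5 (5 of 5), and lymphoid markers to 9.21 (1 of 5), 0.756 (0 of 5) and 10.4 (1 of 5), with Cd3e at 0 in all 3. In cultured libraries the sums were 5.31 to 26.4 for neutrophil, 0.783 to 2.36 for macrophage, 19.2 to 26.8 for megakaryocyte and 1.67 to 2.39 for lymphoid markers. The part of such cells in the results was not tested. In bulk samples, fewer cells of a type and less RNA per cell cannot be told apart.

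Proteasome transcripts were abundant in every library. The median over the 43 members that are proteasome genes and were expressed was 62.3 in BFU-E, 76.1 in CFU-E and 67.6 in Ter119-positive cells. It was 88.6 to 107 in the 6 cultured libraries. This placed it at percentile 83.6 to 95.1 of all genes at 1 or more. Psmb11, the beta subunit of the thymus-specific proteasome, was the exception, at 0 in 6 libraries that include fresh BFU-E and CFU-E and at most 0.226, in Ter119-positive cells. It did not pass the filter, so 45 members entered the comparisons.

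Levels per length differed widely between members of the same ring. In the alpha ring Psma7 averaged 215 over the 9 libraries and Psma3 averaged 5.42. In the beta ring the means ran between 84.3 for Psmb3 and 230 for Psmb4, both non-catalytic subunits. The base ran between 54.3 for Psmc6 and 173 for Psmc5, both ATPases. The lid ran between 34.3 for Psmd11 and 170 for Psmd3, both structural subunits. Some members have sequence that recurs elsewhere. Of the 46 members, 15 share 10% or more of their 32-base words with another gene or a pseudogene, and 21 share 0%. Among core subunits, the 7 with shared sequence had a median mean level of 91.9 against 137 for the other 7. In base and lid it was 94.3 for the 4 with shared sequence against 106 for the other 13, and the low Psmc6 shares 1.09%. The counting of reads that match several places is not given in the sources used here, so the level of a shared member is uncertain. Psma3 has 27.1% shared, Psma5 65.9%, Psmb3 65.8%, Psmb5 72.8% and Psme2 65.7%.

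**Figure D1:**
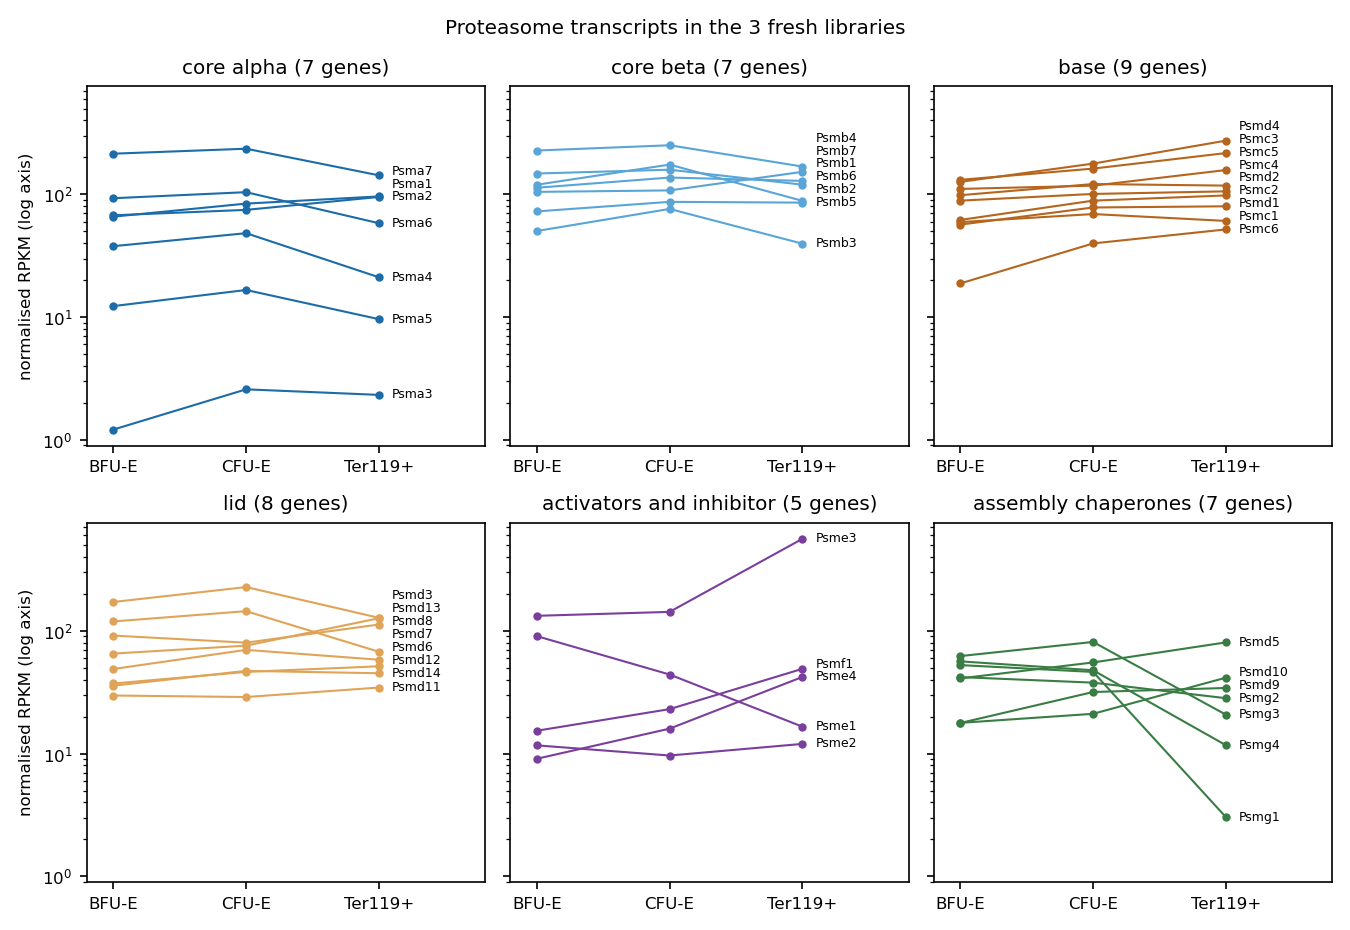
Normalised RPKM (log axis) of the 43 expressed proteasome genes in the fresh BFU-E, CFU-E and Ter119-positive libraries (x axis), 1 line per gene and 1 panel per class, with names stacked in the order of the Ter119-positive level. Psme3 stands highest, at 562, and Psmg1 is at 3.04 in Ter119-positive cells, against 143 and 46.3 in CFU-E.

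Upstream sequences are shown for the catalytic Psmb5 and Psmb6, for Psmc6, the base subunit with the largest difference between progenitors, and for Psme3 and Psmg1, the members with the largest differences up and down in erythroblasts. Each is the 250 bases before the start of transcription in RefSeq, build GRCm38.p6, read along the gene. The regions are chr14:54617996-54618245 (minus strand) for Psmb5, chr11:70525107-70525356 (plus) for Psmb6 and chr14:45329574-45329823 (plus) for Psmc6. They are chr11:101315963-101316212 (plus) for Psme3 and chr16:95990961-95991210 (minus) for Psmg1. Both strands were searched for 4 motifs, and capitals mark those found. They were TGACNNNGC, the core of the antioxidant response element, the box CCAAT bound by NF-Y, the E-box CACGTG, and AGATAA, which is bound by GATA factors.
Psmb5: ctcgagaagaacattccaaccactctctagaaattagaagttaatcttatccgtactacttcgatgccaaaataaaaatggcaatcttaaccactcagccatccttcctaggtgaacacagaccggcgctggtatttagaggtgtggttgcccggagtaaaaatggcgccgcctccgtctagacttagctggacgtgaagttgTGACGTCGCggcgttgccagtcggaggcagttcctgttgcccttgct
Psmb6: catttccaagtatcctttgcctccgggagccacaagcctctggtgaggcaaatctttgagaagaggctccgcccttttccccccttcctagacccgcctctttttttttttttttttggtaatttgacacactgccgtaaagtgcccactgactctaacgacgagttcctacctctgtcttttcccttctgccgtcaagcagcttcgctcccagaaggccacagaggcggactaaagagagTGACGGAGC
Psmc6: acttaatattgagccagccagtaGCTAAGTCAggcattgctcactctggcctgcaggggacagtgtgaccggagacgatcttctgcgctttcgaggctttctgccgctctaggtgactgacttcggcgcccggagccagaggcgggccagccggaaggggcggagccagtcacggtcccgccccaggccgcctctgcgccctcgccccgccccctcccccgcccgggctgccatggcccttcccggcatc
Psme3: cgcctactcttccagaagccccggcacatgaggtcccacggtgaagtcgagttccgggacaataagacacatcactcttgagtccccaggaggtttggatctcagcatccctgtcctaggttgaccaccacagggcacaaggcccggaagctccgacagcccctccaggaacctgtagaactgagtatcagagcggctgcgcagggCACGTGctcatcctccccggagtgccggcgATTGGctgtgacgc
Psmg1: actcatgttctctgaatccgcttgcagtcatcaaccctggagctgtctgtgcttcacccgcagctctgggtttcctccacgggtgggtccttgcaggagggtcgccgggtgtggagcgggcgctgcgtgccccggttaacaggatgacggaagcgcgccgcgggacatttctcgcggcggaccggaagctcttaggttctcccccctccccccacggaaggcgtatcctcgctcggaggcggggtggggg
TGACNNNGC begins 47 bases before the start in Psmb5, 9 bases in Psmb6 and, on the opposite strand, 227 bases in Psmc6. In Psme3, CACGTG lies 44 bases and CCAAT, on the opposite strand, 14 bases before the start. None of the 4 motifs lies in the Psmg1 window.

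Over windows that also hold the first 50 transcribed bases, 39 of the 46 members had an entry. TGACNNNGC was in 6 of them (15.4%), Psmb5, Psmb6, Psmc6, Psmd12, Psmd9 and Psme4, beside 14.0% of all 27025 promoters. CCAAT was in 15 members (38.5%) and 41.1% of all promoters, and in 5 of the 7 alpha subunits. CACGTG was in 4 members (10.3%) and 8.09% of all, and AGATAA in 3 members (7.69%) and 12.7% of all. Among the 7742 promoters of genes at a mean of 1 or more, the shares were 17.3% for TGACNNNGC, 43.6% for CCAAT, 12.7% for CACGTG and 7.63% for AGATAA. A match is a description of letters and not a binding site.

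The first comparison set CFU-E against BFU-E, the step between the early and the later progenitor. Proteasome genes stood slightly higher in CFU-E as a group, with 37 of 45 members above 0 and a median difference of 0.28, beside a median of -0.08 over all 9947 expressed genes. All expressed core and base subunits were above 0, 7 of 7 alpha, 7 of 7 beta and 9 of 9 base genes. Class medians were 0.34 for alpha, 0.26 for beta, 0.30 for base, 0.29 for lid, 0.11 for activators and inhibitor, and 0.23 for chaperones. Few differences were large. On the log2 scale with 1 added to each level, 1 member was at least 2-fold higher and 1 at least 2-fold lower. By the same rule 3.32% and 12.3% of all expressed genes were. With 1 library per population there is no replicate check and no test, and intervals below cover counting error only.

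The member past 2-fold higher by this rule was Psmc6, an ATPase of the base, at 39.8 in CFU-E against 18.8 in BFU-E. Its ratio was 2.12 (exact 95% interval 1.96 to 2.30). Psme1, a subunit of the interferon-inducible activator, was 44.1 in CFU-E against 90.5 in BFU-E, a ratio of 0.487 (0.453 to 0.522). Psme1 lies just past the limit, at -1.02, and just inside it, at -0.99 with no factor and -0.98 without globins. Neutrophil markers were also lower in CFU-E than in BFU-E, as given above, and their part in the Psme1 difference was not tested.

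Within each class the differences varied. Psma3 was highest among alpha subunits at 0.69, and Psma7 lowest at 0.13. The levels of Psma3 were low, at 2.58 in CFU-E against 1.21 in BFU-E. Their ratio of 2.13 is past 2-fold only before 1 is added to each level. Psmb3 was at 0.59 and the catalytic Psmb7 at 0.04 among beta subunits. In the lid, Psmd6 was at 0.51 and Psmd8, at 80.1 in CFU-E against 91.5 in BFU-E, at -0.19. Of the activators, Psme4 (a nuclear activator known for its binding of acetylated histones) was 16 in CFU-E against 9.07 in BFU-E, a ratio of 1.76 (1.64 to 1.89). Psmf1, an inhibitor and trafficking factor of the core, was 23.0 against 15.3, a ratio of 1.5 (1.40 to 1.61). Among chaperones, Psmd9, which acts on the base, was 31.7 against 17.8, a ratio of 1.79 (1.65 to 1.94), and Psmg4, which acts on the alpha ring, 47.7 against 56.4.

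The second comparison set Ter119-positive erythroblasts against CFU-E, across the main steps of terminal maturation. Here the classes parted: the class of activators and inhibitor stood highest, with the inhibitor Psmf1 at its median, and core subunits stood low. The median difference was 1.06 for activators and inhibitor, 0.14 for base, 0.04 for lid, -0.40 for beta, -0.41 for chaperones and -0.72 for alpha subunits, beside -0.21 over all 9530 expressed genes. The members as a whole had a median of -0.02, with 22 above 0 and 23 below. At least 2-fold higher were 3 members and at least 2-fold lower 6, where 22.6% and 28.8% of all expressed genes were, 51.4% in all.

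The scaling decides where 0 lies in this comparison. The Ter119-positive library had a factor of 0.419, while the others had 1.02 to 1.18. With the deposited RPKM the median over all genes shifts by -1.09 and stands at -1.30. The members' counts become 0 higher and 31 lower, where 788 and 5618 of 9318 expressed genes were. Members above 0 are then 2 of 45. Scaling to the sum without globins shifts the all-gene median by -0.83. The members' counts become 0 and 22, where 1027 and 4838 of 9395 expressed genes were. The share of 2-fold genes that are higher is 44% as used here, 12.3% with no factor and 17.5% without globins. The class of activators and inhibitor had the highest and alpha subunits the lowest class median under each of the 3 scalings. The median of the former was the value of the inhibitor Psmf1. It was -0.27 with no factor and 0.08 without globins, above the all-gene medians of -1.30 and -1.04. The alpha medians of -1.92 and -1.62 stood below them. Abundant members move by more than the all-gene median: the members' median of -0.02 becomes -1.31 with no factor and -0.96 without globins.

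**Figure D2:**
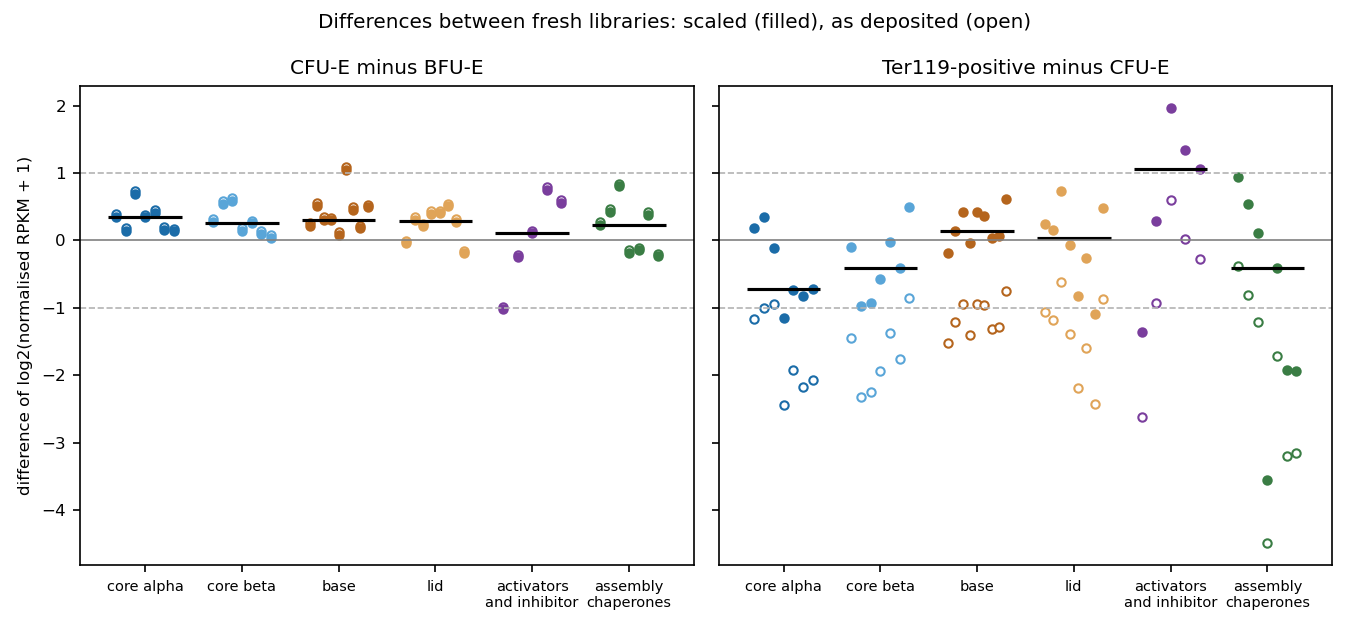
Difference of log2(normalised RPKM + 1) for each expressed proteasome gene (points) by class, for CFU-E minus BFU-E and for Ter119-positive minus CFU-E, with the class median as a bar and 2-fold as dashed lines. Open points use RPKM as deposited: they lie close to the filled points at left and well below them at right (Psmd4 at -0.75 against 0.62), where most base, lid and activator genes that are above 0 when scaled lie below it.

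Psme3, the activator of the nucleus that opens the core without ubiquitin, was the most abundant member in erythroblasts. It was 562 in Ter119-positive cells, 143 in CFU-E and 133 in BFU-E, and 179 to 216 in the cultured libraries. The ratio of Ter119-positive cells to CFU-E was 3.94 (exact 95% interval 3.83 to 4.05), and Psme3 stayed above 0 with no factor (0.60) and without globins (0.97). Psme4 was 42.1 in Ter119-positive cells against 16 in CFU-E, a ratio of 2.64 (2.49 to 2.79), and 0.02 and 0.38 under those scalings. Psmf1 was 49.0 against 23.0, a ratio of 2.13 (1.99 to 2.28), but -0.27 with no factor and 0.08 without globins. Psme4 and Psmf1 were higher at each later stage as scaled here, and in the cultured libraries they were 13.0 to 21.2 and 10.5 to 18.3.

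The interferon-inducible activator went the other way. Psme1 was 16.6 in Ter119-positive cells against 44.1 in CFU-E, a ratio of 0.376 (0.312 to 0.449). In the cultured libraries it was 51.1 to 70.7. Its partner Psme2 was 12 against 9.64, a difference of 0.29 that is -0.93 with no factor and -0.61 without globins, and reads of Psme2 are shared with a near copy. Cultured libraries held 11.8 to 14.4 of Psme2. Neutrophil and macrophage marker sums were higher in Ter119-positive cells than in CFU-E, and their part in the Psme1 difference was not tested.

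Each of the 4 chaperones of the alpha ring had a lower difference than each of the 3 chaperones of the base, under all 3 scalings. Psmg1, which starts the alpha ring together with Psmg2, was 3.04 in Ter119-positive cells, 46.3 in CFU-E and 52.6 in BFU-E. It was 50.5 to 55.2 in the cultured libraries, so that the erythroblast library stood alone. The ratio of Ter119-positive cells to CFU-E was 0.0657 (0.0413 to 0.0985), from an estimated 23 reads against 1242. Psmg3 was 20.8 against 81.2, a ratio of 0.256 (0.213 to 0.305), and Psmg4 11.7 against 47.7, a ratio of 0.245 (0.171 to 0.334). Psmg2 was nearer, at 28.3 against 37.8. The chaperones of the base were not lower as scaled here: Psmd10 was 41.5 against 21.1 and Psmd5 80.5 against 55.3, though both are below 0 with no factor (-0.38 and -0.81) and without globins (-0.03 and -0.45). The alpha-ring chaperones Psmg1, Psmg3 and Psmg4 were past 2-fold lower under all 3 scalings, at -4.49, -3.20 and -3.16 with no factor.

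In the core, 2 alpha subunits and 1 beta subunit were above 0. Psma4 was the core member past 2-fold, at 21.1 in Ter119-positive cells against 48.3 in CFU-E, a ratio of 0.437 (0.372 to 0.510). Psma1 was 96.2 against 84.0, Psma2 95.2 against 74.7, and Psma7 143 against 235. Of the beta subunits Psmb2 was 88.5 against 175, and Psmb4 169 against 251, with 195 to 286 in the cultured libraries. The catalytic subunits were all within 2-fold. Psmb5, the chymotrypsin-like site, was 85.6 against 86.9, Psmb6, the caspase-like site, 120 against 159, and Psmb7, the trypsin-like site, 153 against 108. In the cultured libraries they were 76.2 to 136, 143 to 171 and 125 to 296. The positive differences of Psma1, Psma2 and Psmb7 turn negative under both other scalings.

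In the regulatory particle, 7 of 9 base members were above 0 as scaled here and 0 of them with the deposited values. Psmd4, a ubiquitin receptor, was highest at 274 in Ter119-positive cells against 178 in CFU-E, and Psmc1 lowest at 60.8 against 69.1. Psmc5 was 158 against 118, and 147 to 246 in the cultured libraries. The lid had members on both sides. Psmd13 was 127 against 75.8 (below 0 under both other scalings), Psmd3 128 against 227, and Psmd7, the partner of the deubiquitinase Psmd14, 67.6 against 145, a ratio of 0.467 (0.433 to 0.503). Psmd14 itself was 45.1 against 47.2. Summed over expressed members, the base was 1162 in Ter119-positive cells against 956 in CFU-E, the lid 624 against 720, the alpha subunits 426 against 566 and the beta subunits 784 against 992.

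Between Ter119-positive cells and BFU-E, a comparison of libraries used above, 6 members were at least 2-fold higher and 4 lower, where 21.2% and 35.8% of all expressed genes were, 57.0% in all. The higher ones were Psmc6, Psmd4, Psme3, Psme4, Psmf1 and Psmd10, and the lower ones Psme1, Psmg1, Psmg3 and Psmg4. Psmc6 was 51.8 in Ter119-positive cells against 18.8 in BFU-E, and Psme1 16.6 against 90.5. With no factor the counts were 0 and 25, where 904 and 6246 of 10080 expressed genes were. Psmd4 and Psmd10 were then below 0, at -0.22 and -0.11. Without globins the counts were 2 and 16, where 1184 and 5509 of 10141 expressed genes were.

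The catalytic members have inducible counterparts that replace them in the immunoproteasome of white cells, so the share of the inducible subunit at each site was computed from the levels per length. At the beta5 site, Psmb8 made up 38.6% of Psmb8 and Psmb5 in BFU-E (exact 95% interval 36.8 to 40.4), 0.506% in CFU-E (0.313 to 0.811) and 2.16% in Ter119-positive cells (1.33 to 3.21). Psmb8 was 45.6, 0.442 and 1.89, while Psmb5 was 72.6, 86.9 and 85.6. The share followed Psmb8, since Psmb5 varied far less. At the beta1 site the share of Psmb9 was 10.7%, 0.540% and 0.420%. At the beta2 site the share of Psmb10 was 40.8% in BFU-E, 33.9% in CFU-E and 3.37% in Ter119-positive cells, so that it was high in both progenitors. In the cultured libraries the beta5 share was 9.98% to 13.7%, between fresh BFU-E and CFU-E. Neutrophil markers summed to 99.3 in BFU-E, 4.79 in CFU-E and 204 in Ter119-positive cells, and lymphoid markers to 9.21, 0.756 and 10.4. Single markers differed in pattern. In the same order Mpo was 71.5, 2.09 and 57.3, S100a8 0, 0 and 20.8, and the lymphoid Cd79b 8.14, 0.0645 and 0.909. Sequence shared with other genes or pseudogenes was 72.8% for Psmb5, 14.1% for Psmb6 and 32.9% for Psmb7. It was 8.0% for Psmb8, 13.9% for Psmb9 and 0.0% for Psmb10. The part of white cells or of shared reads in the shares at the sites was not tested.

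**Figure D3:**
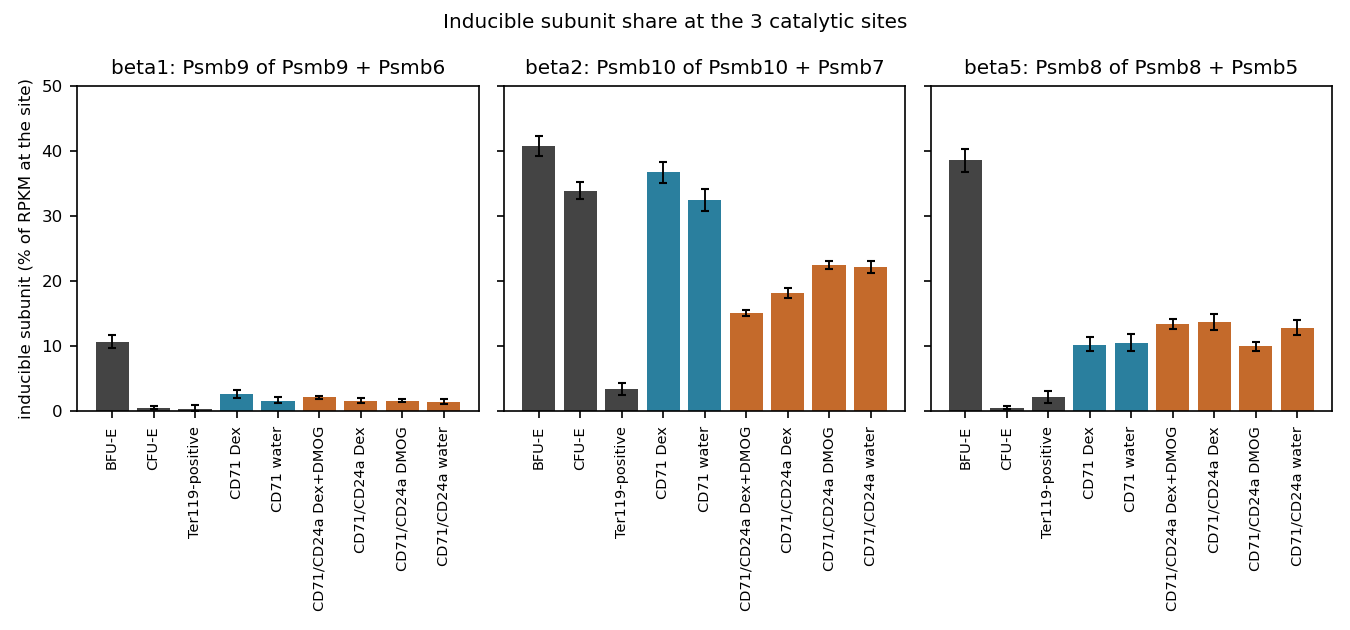
Share of the inducible subunit in the summed RPKM of inducible and constitutive subunit (y axis, %) at each catalytic site, in the fresh and cultured libraries (x axis), with exact 95% intervals of counting error. At beta5 fresh BFU-E stands at 38.6% and the cultured libraries at 9.98% to 13.7%. At beta2 the CD71/CD24a sort libraries lie below the CD71 sort libraries. There the constitutive Psmb7 was 204 to 296 in the CD71/CD24a sort against 125 to 136 in the CD71 sort. Psmb10 was 52.7 to 62.4 against 65.4 to 72.7.

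The next comparison asked whether Dex changed the members in cultured BFU-E over 3 pairs of Dex and water arms, 1 of which carried DMOG in both arms. No change was detected by limma with Benjamini-Hochberg adjustment: 0 of 45 members were called. A fit without the culture pair also called 0, where 0.0315% of all genes were called. An unadjusted p under 0.05 was found for 6 of 45 members and for 1540 of all 9535 genes tested. Of all 9535 genes tested, 1.39% were called higher and 0.629% lower. Differences of members ran between -0.30 and 0.25, with a median of 0.01 and a median SE of 0.079. The lowest adjusted p from limma was 0.213, for Psmd5, a chaperone of the base.

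The 6 members with the lowest unadjusted p were Psma7, Psmb4, Psmc5 and Psmd2, with positive differences, and Psmb3 and Psmd5, with negative ones. Psma7 was 260 with Dex against 221 with water in the CD71 sort, 222 against 202 in the CD71/CD24a sort and 235 against 199 under DMOG. Its limma difference was 0.20 (SE 0.068, adjusted p = 0.229, Benjamini-Hochberg), with Dex higher in 3 of 3 pairs. Psmd5 was 56.2 against 64.6, 52.9 against 58.8 and 52.3 against 64.1, with a difference of -0.21 (SE 0.068) and Dex lower in 3 of 3 pairs. The direction was the same in the 3 pairs for 16 of 45 members (35.6%) and for 40.7% of all genes tested.

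**Figure D4:**
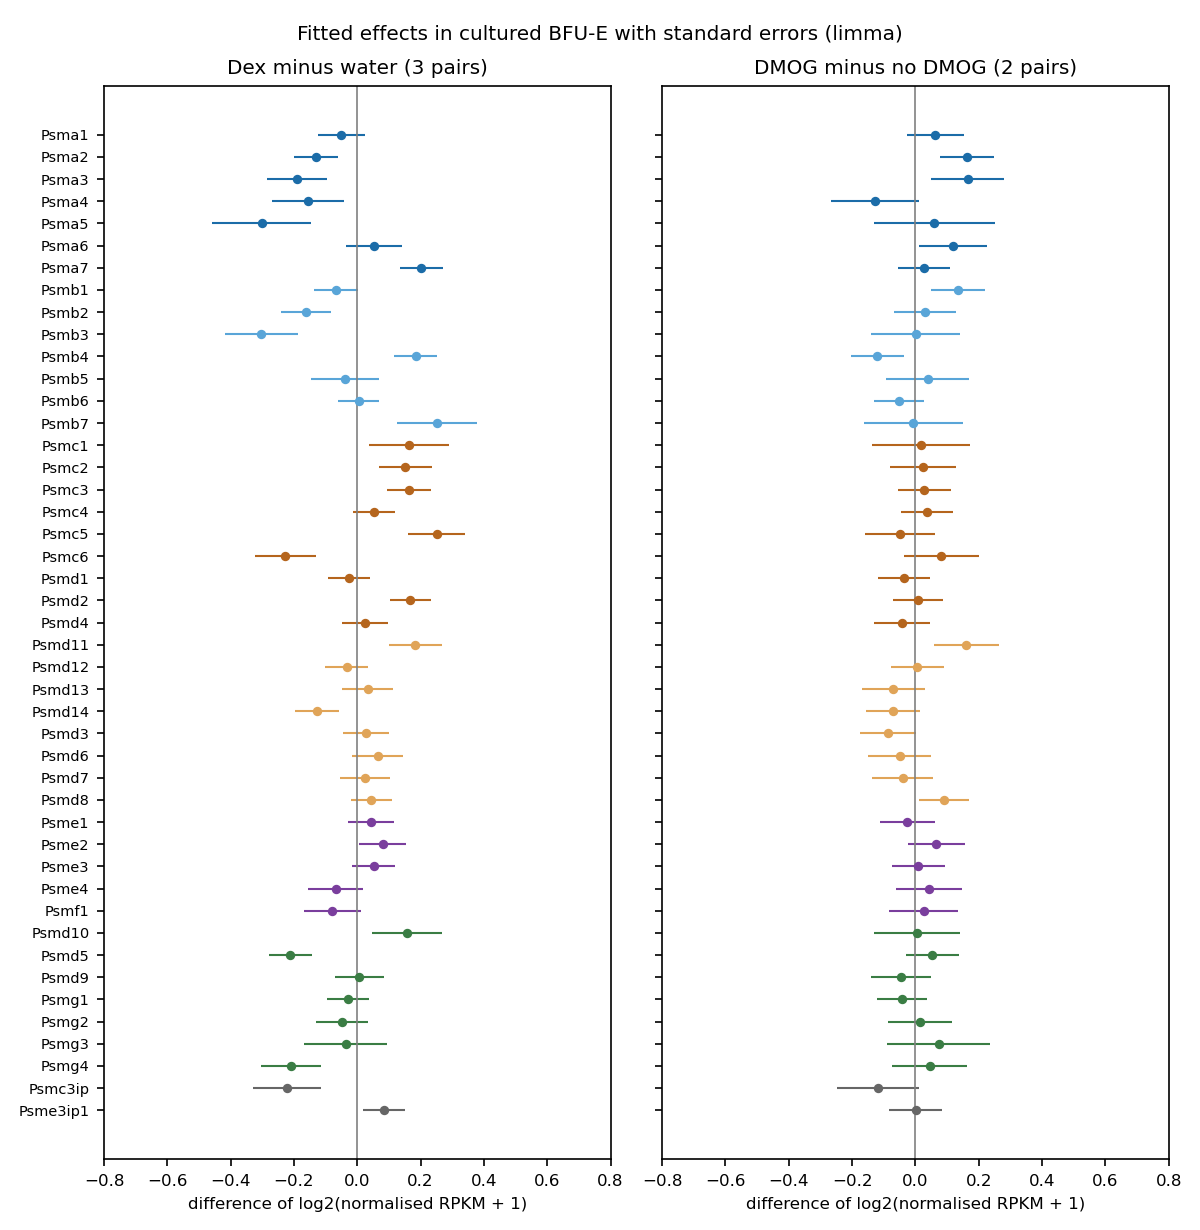
Fitted difference of log2(normalised RPKM + 1) with its SE (bars) for the 45 expressed members, Dex minus water over 3 pairs and DMOG minus no DMOG over 2 pairs. The points lie between -0.30 and 0.25 for Dex and between -0.13 and 0.16 for DMOG, and no member was called by limma.

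The calls for Dex depended on the CD71 sort pair. Without the CD71 sort pair, limma called 7 members, where 12.3% of all genes were called. Higher were Psmb7 (0.44, SE 0.079), Psmc1 (0.32, SE 0.089), Psmc2 (0.25, SE 0.069) and Psmd11 (0.28, SE 0.067). Lower were Psmb3 (-0.47, SE 0.071), Psmc3ip (-0.34, SE 0.083) and Psmg4 (-0.34, SE 0.068). These calls rest on 2 pairs of the same sort and 1 residual degree of freedom. Leaving out the CD71/CD24a pair without DMOG called 0 members, where 1.51% of all genes were called. Leaving out the pair with DMOG also called 0, where 2.55% of all genes were called.

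The Dex effect in the CD71/CD24a sort was therefore set against that in the CD71 sort in a limma model added after those values were seen. It called 5 of 45 members, 3 with a positive and 2 with a negative difference, where 3.48% and 2.55% of all genes were called. Psma5, an alpha subunit, was 22.2 with Dex against 39.5 with water in the CD71 sort, and 23.5 against 23.4 in the CD71/CD24a sort. Under DMOG it was 23.5 with Dex against 25.5 without. The difference of effects was 0.75 (SE 0.12, adjusted p = 0.00452, Benjamini-Hochberg).

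Psma4, another alpha subunit, was 61.2 with Dex against 86.1 with water in the CD71 sort, 153 against 148 in the CD71/CD24a sort and 136 against 139 under DMOG, a difference of effects of 0.50. Psmb7 was 125 against 136, 278 against 219 and 296 against 204, with 0.56. Both Dex libraries of the CD71/CD24a sort held more Psmb7 than the libraries without Dex. Psmb3 was 144 against 142, 66.1 against 86.0 and 62.0 against 91.7, with -0.49. Psmg3 was 88.6 against 69.7, 36.1 against 38.4 and 34.5 against 44.6, with -0.57. Adjusted p for these 4 was between 0.0318 and 0.0438 in limma. Psma5 was also called under both other scalings, while the other 4 were not called without globins, and none of the 5 was called without the filter on low values. The share of all genes called was also lower without globins, and lowest without the filter. The CD71 sort has 1 library per arm and the error rests on 1 residual degree of freedom, from the 2 CD71/CD24a pairs. The Dex effect in the CD71 sort cannot be told apart from a difference between its libraries, and these p-values do not show that the sorts differ. Hba-a1, an adult alpha globin, was 98.7 with Dex and 281 with water in the CD71 sort, and 1.68 to 5.12 in the CD71/CD24a sort. Its part in these differences was not tested.

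All 5 called members were among the 15 with 10% or more shared sequence, and 0 of the 30 other tested members were called. Psmb7 overlaps Nek6 on the opposite strand over 34.9% of its exonic bases, and Psmg3 overlaps Gm26938 on the same strand over 26.8%. Shared sequence was computed only for the members and the inducible subunits, so no share over all genes can be set beside this split. Whether shared reads take part in these differences was not tested.

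**Figure D5:**
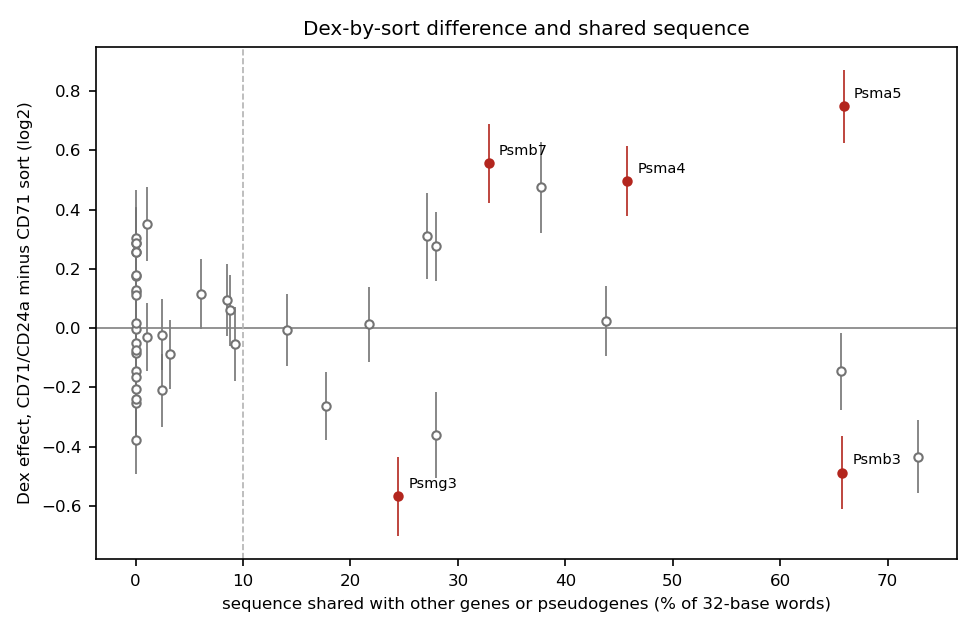
Dex effect in the CD71/CD24a sort minus that in the CD71 sort (y axis, log2 scale, SE as bars) against the percent of 32-base words shared with other genes or pseudogenes (x axis), for the 45 expressed members. The 5 members called by limma (filled) all lie right of the dashed line at 10%. The same split was not computed over all genes tested.

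DMOG was compared over the 2 pairs of the CD71/CD24a sort. Limma with Benjamini-Hochberg adjustment called 0 of 45 members. An unadjusted p under 0.05 was found for 0 members and for 347 of all 9535 genes. Without the culture pair 0 members and 0.0% of all genes were called. Without the CD71 sort pair 0 members were called, where 1.27% of all genes were. Of all 9535 genes 0.021% were called higher and 0.0% lower, so that a low count is common to nearly all genes. Member differences ran between -0.13 for Psma4 and 0.16 for Psma3, with a median SE of 0.097. The Dex-by-DMOG interaction called 0 members and 0.0% of all genes in either direction. In that fit 3 members (Psmc1, Psmd10 and Psmg3) and 275 of all 9535 genes had an unadjusted p under 0.05.

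Over the 6 cultured libraries Psmg1, so low in erythroblasts, varied least of the 43 proteasome genes, with a highest level 1.09 times the lowest. Psma3, at 3.5 to 9.50, had the widest span there, at 2.71. Psmg3 spanned 2.57 and Psma4 2.50.

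Alpha, beta, base and lid transcripts were mostly higher in both cultured water libraries than in fresh BFU-E, with 1 library each and no test. The CD71 sort water library had 5 members at least 2-fold higher (6.27% of all genes) and 0 lower (9.06%). The CD71/CD24a sort water library had 10 higher (11.2%) and 0 lower (12.9%). Both use the same fresh BFU-E library. Class medians in the CD71 and the CD71/CD24a sort were 0.77 and 0.88 for alpha, 0.48 and 0.89 for base, 0.38 and 0.51 for lid, and 0.37 and 0.13 for beta subunits. Psmc6 was 55.2 and 73.8 in the water libraries against 18.8 in fresh BFU-E, and Psmd14 66.5 and 107 against 35.7. Between the water libraries 0 members passed 2-fold, where 1.44% of all genes were higher and 3.07% lower in the CD71/CD24a sort. The members ran between -0.85 for Psmg4 and 0.77 for Psma4.

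Genes that work with the proteasome were described from a list of 32 names, of which 28 were found. In Ter119-positive cells against CFU-E, 7 were at least 2-fold higher and 5 lower as scaled here, 25.0% and 17.9% of the list beside 22.6% and 28.8% of all expressed genes. Among them the polyubiquitin gene Ubb was 453 against 98.5 and Nfe2l1, a transcription factor of proteasome genes, 71.3 against 24.8. Akirin2, which helps to import proteasomes into the nucleus, was 60.9 against 15.2, the proteasome-binding Zfand5 27.3 against 7.03, and Ufd1, a cofactor of Vcp, 30.9 against 13.5. The core maturation factor Pomp was 46.9 against 113. The shuttle factors Rad23b and Ubqln4 were 15.4 against 55.4 and 16.1 against 68.4, the ubiquitin fusion gene Rps27a 3.48 against 10.6, and the ubiquitin-activating enzyme Uba6 1.12 against 3.29. Between CFU-E and BFU-E 0 of the 28 passed 2-fold, where 15.6% of all expressed genes did.

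With Dex 2 of the 28 fell, called by limma at a Benjamini-Hochberg adjusted p of 0.0140 for Adrm1, a ubiquitin receptor of the base, and 0.0483 for Ubb. Of all genes tested, 0.629% were called lower with Dex. Adrm1 was 39.0 with Dex against 74.8 with water in the CD71 sort, 15.5 against 23.0 in the CD71/CD24a sort and 12.3 against 21.9 under DMOG, a difference of -0.75 (SE 0.091). Ubb was 205 against 415, 95.7 against 125 and 90.6 against 149, a difference of -0.71 (SE 0.12). Neither was called without the culture pair or without the filter on low values, where 0.0315% and 0.135% of all genes were called. Ubb was also not called with a pseudocount of 0.1 or without the mean-variance trend. The CD71 sort water library stood apart from the other cultured libraries for Vcp, an ATPase that unfolds ubiquitin-tagged proteins, at 133 against 53.2 to 76.0.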

How the data were processed

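The authors deposited RPKM values per RefSeq record. The submitters' processing notes name build mm9. Which aligner and counter were used, and whether strand was used, is not given in the sources used here. An exact 1 stands in the 4 CD71/CD24a files where the others hold 0, and was read as 0. Symbols came from RefSeq for 22397 records and from GENCODE for 114, and 530 had none. For a symbol with several records the highest mean was kept.

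Each library was divided by its median ratio to the geometric mean over the 6888 genes whose RPKM was at least 1 in each of the 9 libraries. Depth was estimated from the steps between low RPKM values, of which 66.9% to 69.9% came out whole (tolerance 0.1 reads), against 20% by chance. Exact Clopper-Pearson intervals at 95% from these reads cover counting error only. For a transcript of 1 kb, 3 reads came to between 0.0568 and 0.252 RPKM.

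Fresh libraries were compared without a test, among genes at 1 or more in at least 1 of the 2 libraries. The 2-fold rule was applied after adding 1 to each level. Cultured libraries were tested with limma 3.58.1 in R 4.3.3 (empirical Bayes with a trend, pseudocount 1, mean of at least 1, Benjamini-Hochberg adjusted p under 0.05). The model held culture pair and Dex, with 2 residual and 4.31 prior degrees of freedom. The pairing comes from the protocol, which divides the cells of a sort between arms. The interaction and Dex-by-sort models had 1 residual degree of freedom. The limma step was tested on simulated data, where the Dex-by-sort test made a small number of calls on genes with no difference.

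Shared sequence is the percent of 32-base words, 1 in 4 sampled, found in other genes or pseudogenes of GENCODE transcripts. Alternatives were 2 other scalings, a pseudocount of 0.1, no filter, the exact 1 kept, summed records, no trend, no block and leaving out each pair. Named genes are the catalytic subunits, all activators, and in each class the highest mean, the largest differences and the members called. The members and lists were chosen with earlier results of these data known. Values of some genes of the partner list are not reported here.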

Additional observations from a re-analysis of the deposited data

Results flagged for a closer look

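For 5 members limma called the difference between the Dex effects in the sorts. The CD71 sort has 1 pair of libraries, and the error rests on 1 residual degree of freedom from the 2 CD71/CD24a pairs, so the calls do not show that the sorts differ. The Dex effect in the CD71/CD24a sort minus that in the CD71 sort was 0.75 for Psma5, 0.56 for Psmb7, 0.50 for Psma4, -0.49 for Psmb3 and -0.57 for Psmg3. Of these, Psma5 kept its call under each other scaling, pseudocount, record and trend setting run, with a limma adjusted p of 0.00316 to 0.0223, and lost it with no filter on low values, at 0.176. The others lost theirs under several of those settings. With no filter the share of all genes called was also at its lowest.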

How the results depend on the processing

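Fresh libraries have no replicates, and the position of 0 for Ter119-positive cells rests on the scaling. With no scaling factor, members at least 2-fold higher and lower were 0 and 31 for Ter119-positive cells against CFU-E and 0 and 25 against BFU-E, and 0 were lower in CFU-E than in BFU-E. Scaled to the sum without globins they were 0 and 22, 2 and 16, and again 0. Of all expressed genes, those lower in the same order were 5618 of 9318, 6246 of 10080 and 1213 of 10010 with no factor. Without globins they were 4838 of 9395, 5509 of 10141 and 1213 of 10012. Against CFU-E the class medians with no factor were -1.92 (alpha), -1.76 (beta), -1.21 (base), -1.29 (lid), -1.71 (chaperones) and -0.27 (activators and inhibitor). Without globins they were -1.62, -1.40, -0.85, -0.93, -1.37 and 0.083. As scaled in the main comparison, base, lid, and activators and inhibitor were above 0, at 0.14, 0.04 and 1.06. Base and lid thus changed sign under both other scalings, and activators and inhibitor with no factor. Against BFU-E the class medians were -1.47, -1.62, -0.81, -1.04, -1.82 and 0.32 with no factor, and -1.17, -1.25, -0.45, -0.67, -1.47 and 0.68 without globins. There base and lid, at 0.51 and 0.27 in the main comparison, also changed sign under both. These moves follow from the factor of 0.419. A pseudocount of 0.1 gave 2 members higher in CFU-E than in BFU-E, where 468 of 9947 expressed genes were. With no filter the beta medians were -0.25 and -0.058 for Ter119-positive cells against CFU-E and BFU-E, since Psmb11 then enters.

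Dex called 0 members under each scaling, pseudocount, filter, record and trend setting and with no replicate block, where 3 genes in all were called. Leaving out 1 pair gave 0 to 4 higher and 0 to 3 lower members, the highest counts without the CD71 sort pair. DMOG and the interaction called 0 members under every setting run. The Dex-by-sort calls were 3 higher and 2 lower. They were 1 and 2 with no factor, 1 and 0 without globins, 2 and 0 with a pseudocount of 0.1, 0 and 0 with no filter, 3 and 1 with summed records and 1 and 0 without the trend. The share of all genes called fell under each of these settings too, and was lowest with no filter. The cause was not tested. No alternative changed the direction of a class median in CFU-E against BFU-E.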
